A study of Mus musculus with 14 samples.

Results

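Whole mouse lung was measured on 14 Affymetrix arrays, and the account below covers the genes of the collagen, laminin and elastic fibre matrix. The members are genes whose annotated symbol has the form of a collagen chain (as Col4a1) or of a laminin chain (Lama, Lamb or Lamc with a digit), together with Eln, Fbn2, Fbln1, Fbln2, Fbln5, Lox, Loxl1, Fn1, Postn and Tnc. They were chosen by name and not by measured values, and 62 of the 18194 genes with a probe set belong to them, 42 of them collagens and 10 of them laminin chains. Each gene is represented by the probe set with its highest mean. Fbn1 and Loxl2 had no probe set that carried their symbol alone and were not analysed here.

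The arrays fall into 4 labelled groups. VILI PBEF+/- holds 3 arrays of lungs ventilated for 4 hours at a tidal volume of 40 ml/kg, from animals 8 to 12 weeks old. VALI holds 4 arrays of lungs ventilated in the same way, from animals 18 to 22 weeks old. PBEF+/- holds 3 arrays of unventilated lungs and Control holds 4 arrays of lungs given PBS, all from animals 18 to 22 weeks old. The series text instead names 30 ml/kg and recombinant human PBEF, a secreted enzyme of NAD metabolism encoded by Nampt, given into the trachea. The labels do not settle if PBEF+/- is that treatment or a genotype, and they name no strain. Age differs between VILI PBEF+/- and every other group, so in any comparison with that group age and the other differences cannot be told apart. No label says that every array comes from its own animal, and the p-values reflect only how much these samples vary.

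The extracellular matrix of the lung joins a basement membrane under epithelium and endothelium to an interstitial scaffold. Basement membranes are built from type IV collagen networks and laminin trimers of an alpha, a beta and a gamma chain. Fibrillar collagens give tensile strength, and elastic fibres, made of elastin on a microfibril scaffold, give recoil. Lysyl oxidases cross-link both collagen and elastin. Fibronectin and the matricellular proteins periostin and tenascin-C bind cells and are known for their part in repair.

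Levels are deposited log2 expression values, on which a difference of 1 is a doubling. Across the arrays 41 of the 62 members lay above the array median on all 14 arrays and 17 lay below it on all 14. Testing required a value above the array median on at least 3 arrays, which 44 members did and 18 did not. Probe sets differ in how brightly they report, so no level is ranked against that of another gene.

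**Figure D1:**
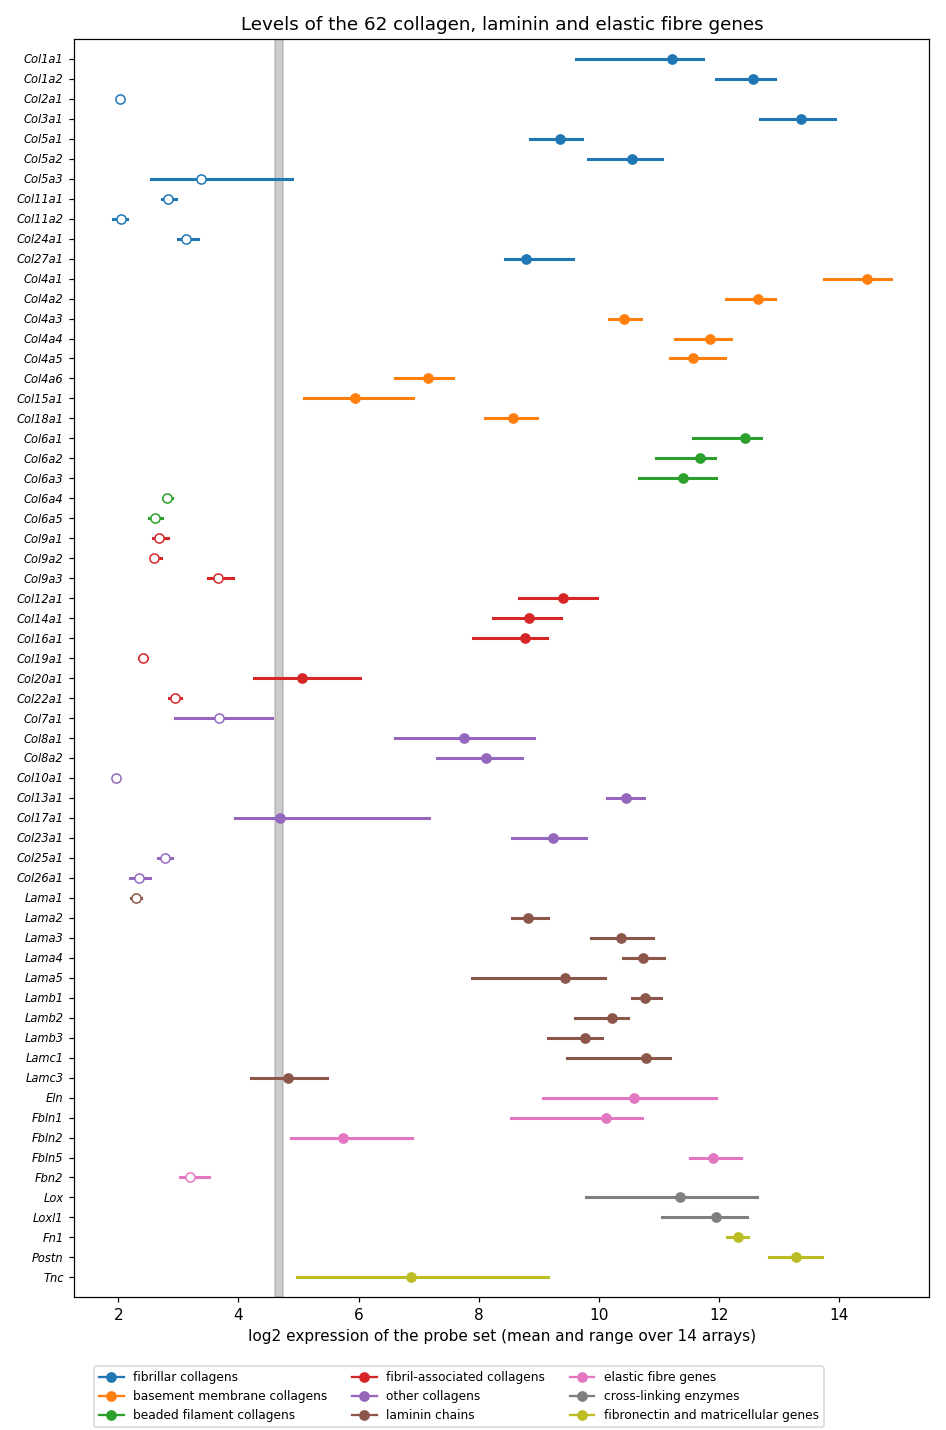
Mean (point) and range (line) of the log2 expression of each of the 62 genes over 14 arrays, listed by name within each role. The grey band marks the range of the array medians, 4.60 to 4.75, and open points are the 18 genes that were not tested. All 8 basement membrane collagens were tested, while 5 of 11 fibrillar collagens were not.

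The arrays did not all follow their labels. Il6, an inflammatory cytokine, read 12.75, 12.33 and 10.32 in VILI PBEF+/- and 9.6, 9.84, 9.85 and 2.78 in VALI, against 2.10, 2.56 and 10.87 in PBEF+/- and 2.09 to 2.45 in Control. VALI replicate 4 and PBEF+/- replicate 3 therefore read like the opposite condition. Calls in every comparison are counted with all 14 arrays as labelled and again with 12 arrays, without those 2. Some differences are given with 12 arrays only. Since Il6 on the arrays themselves chose which 2 to leave out, p-values with 12 arrays are conditional on that choice. Sex-linked transcripts, Xist and genes of the Y chromosome, showed a male pattern on 4 arrays, Control replicates 1 and 4, VALI replicate 4 and PBEF+/- replicate 2, and a female pattern on the other 10. Every array with high Il6 has the female pattern, so part of any ventilation difference cannot be told apart from sex.

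With 14 arrays, 0 of 44 tested members passed an adjusted p of 0.05 in limma in VALI against Control (7 at an unadjusted p under 0.05, against 18.3% of all genes tested). The same held in PBEF+/- against Control (2 members at an unadjusted p under 0.05, background 8.26%), VILI PBEF+/- against PBEF+/- (10 members, background 20.7%) and VILI PBEF+/- against VALI (4 members, background 10.5%). It also held for the interaction, the difference between both ventilation responses (1 member, background 5.58%). In each of these 5 comparisons 0% of all tested genes were called. Averaging the ventilation response over both backgrounds called 5 members, or 11.4% of those tested against 8.36% of all genes. Of these 1 was higher and 4 were lower, against 4.09% and 4.27% of all genes. These calls lie close to the threshold: with sex pattern as a covariate, or without any 1 of 10 of the 14 arrays, 0 members were called.

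With 12 arrays, VALI against Control called 5 members, or 11.4% against a background of 17.0%, and all 5 were lower, as were 10.5% of all genes. VILI PBEF+/- against PBEF+/- called 11, or 25.0% against 26.4%, of which 6 were higher and 5 lower (background 11.2% and 15.3%). The averaged ventilation comparison called 16, or 36.4% against 39.5%, of which 6 were higher and 10 lower (background 14.9% and 24.6%). In 8 members, 3 higher and 5 lower, the 12 arrays showed no overlap between ventilated and unventilated lungs, against 20.4% of all genes, 7.79% higher and 12.6% lower. All 5 members called with 14 arrays were among these 16. PBEF+/- against Control and the interaction called 0 members and 0% of all genes, with 8 and 3 members at an unadjusted p under 0.05 (background 11.1% and 10.4%). VILI PBEF+/- against VALI called 0 members and 0.114% of all genes, with 3 members at an unadjusted p under 0.05 (background 7.55%). The members were thus called about as often as genes in general, and what follows describes which of them moved. The median log2 difference of the 44 tested members in the averaged comparison was 0.03 with 12 arrays, against -0.07 for all tested genes.

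**Figure D2:**
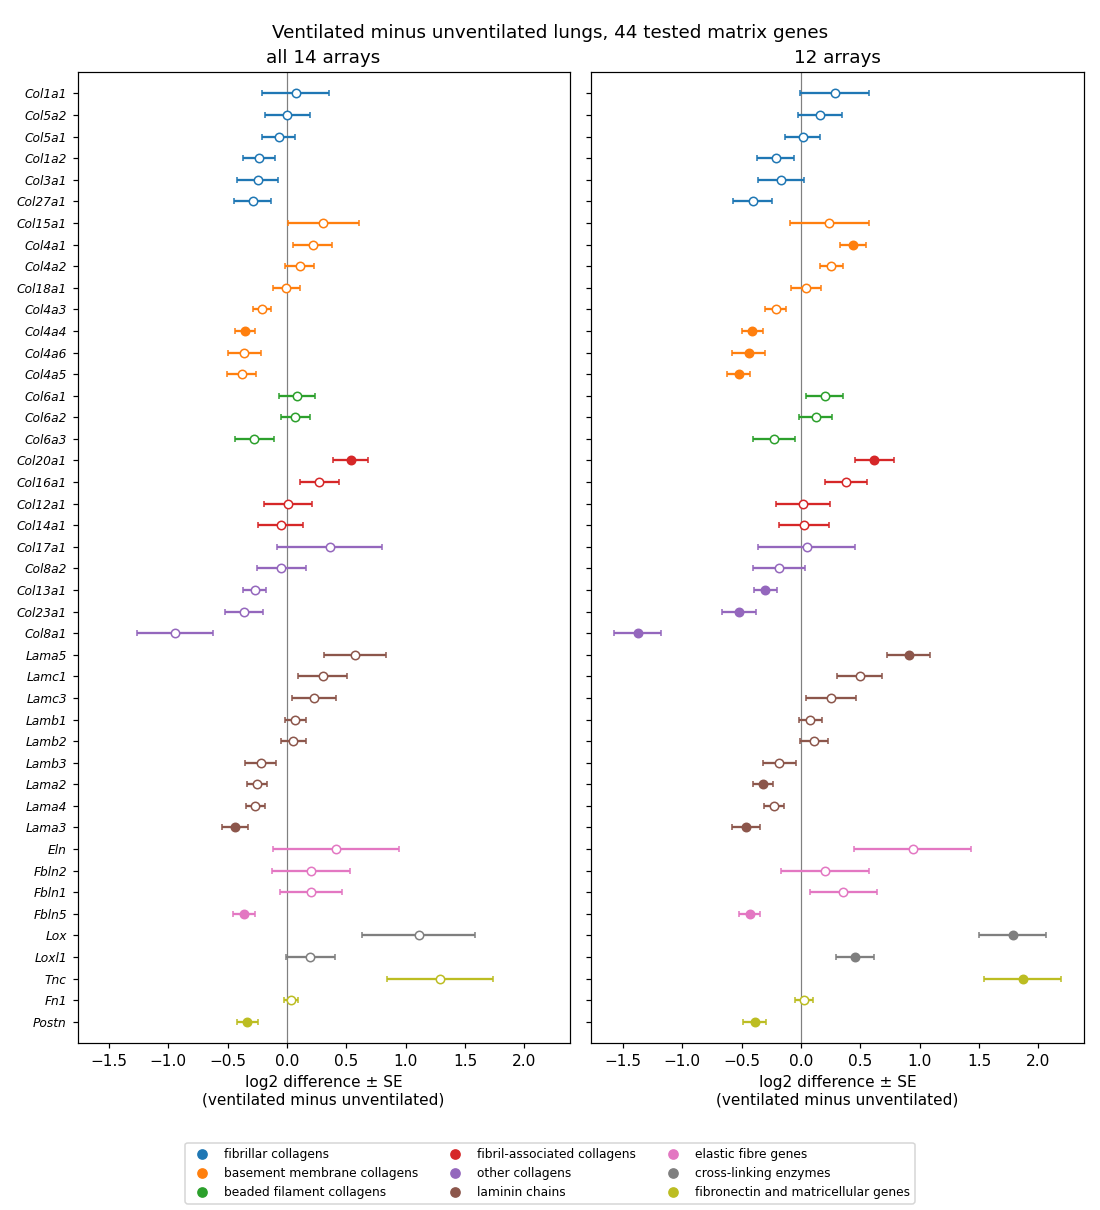
Log2 difference between ventilated and unventilated lungs, averaged over both backgrounds, with its standard error, for the 44 tested genes with all 14 arrays (left) and with 12 arrays (right). Filled points passed an adjusted p of 0.05. Lox and Tnc lie furthest to the right and Col8a1 furthest to the left in both panels, and all 3 are filled with 12 arrays only.

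The fibrillar collagens, which form the rope-like fibrils of the interstitium, gave 0 calls among 6 tested genes in any comparison with either set of arrays. Col1a1, a chain of type I collagen, read 10.99, 11.67 and 10.93 in VILI PBEF+/- and 11.74, 11.42, 10.88 and 11.06 in VALI, against 11.45, 9.62 and 11.61 in PBEF+/- and 11.33, 11.61, 11.72 and 11.08 in Control. The groups overlapped, and the single low value was PBEF+/- replicate 2. Its averaged ventilation difference was 0.07 ± 0.28 with 14 arrays (SE, adjusted p = 0.873, limma). Col1a2, the other type I chain, read 12.26 to 12.59 in VILI PBEF+/- and 12.20 to 12.70 in VALI, against 11.95 to 12.93 in PBEF+/- and 12.78 to 12.89 in Control. All VILI PBEF+/- and VALI arrays of Col1a2 lay below all Control arrays, while PBEF+/- overlapped them all, and it was not called. Col3a1, the type III chain, averaged 13.36 over the 14 arrays and had a difference of -0.25 ± 0.17 (adjusted p = 0.333). In VALI against Control all 6 tested fibrillar collagens had a negative difference, with a median of -0.20 against -0.06 for all tested genes, and none was called. Col2a1, Col11a1, Col11a2, Col24a1 and Col5a3 were not tested. The first 3 of these are chains of cartilage fibrils, and 6 of 7 cartilage markers also lay below the array median on every array.

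Type IV collagen split by chain. The 6 chains are encoded in head-to-head pairs, Col4a1 with Col4a2, Col4a3 with Col4a4, and Col4a5 with Col4a6. Col4a1 and Col4a2 form the network found in most basement membranes, while the chains of Col4a3, Col4a4 and Col4a5 form the network of the alveolar and glomerular membranes. With 12 arrays and averaged over backgrounds, Col4a1 rose and Col4a4, Col4a5 and Col4a6 fell, while Col4a2 and Col4a3 were not called.

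Col4a1 read 14.68, 14.79 and 14.55 in VILI PBEF+/- and 14.71, 14.70, 14.52 and 14 in VALI, against 14.29, 13.76 and 14.86 in PBEF+/- and 14.38, 14.67, 14.49 and 14.14 in Control. The lowest values came from PBEF+/- replicate 2 and VALI replicate 4, and the highest from PBEF+/- replicate 3. The averaged difference was 0.44 ± 0.11 with 12 arrays (adjusted p = 0.00894, limma) and 0.22 ± 0.16 with 14 (adjusted p = 0.366). In VILI PBEF+/- against PBEF+/- it was 0.65 ± 0.17 with 12 arrays (adjusted p = 0.0161). The averaged call was lost with sex pattern as a covariate (adjusted p = 0.0597), and the call against PBEF+/- without VILI PBEF+/- replicate 2. Both calls were also lost with only the arrays of female pattern, and the call against PBEF+/- without PBEF+/- replicate 2. Each of these last fits leaves 1 PBEF+/- array. Col4a2 had an averaged difference of 0.26 ± 0.10 with 12 arrays and did not pass (adjusted p = 0.0592). The 2 probe sets kept step: their log2 difference lay between 1.64 and 2.0 on every array with an SD of 0.12, against an SD of 0.32 for Col4a1 itself. The size of that difference also reflects the probes.

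The RefSeq promoters of both genes (GRCm38.p6, 250 bases before to 50 after the annotated start) are shown because these genes start back to back. Col4a1 is on the minus strand at chr8:11312777-11313076 and Col4a2 on the plus strand at chr8:11312555-11312854. Capitals mark the 78 bases the windows share, at 11312777 to 11312854, which are reverse complements of each other.
Col4a1: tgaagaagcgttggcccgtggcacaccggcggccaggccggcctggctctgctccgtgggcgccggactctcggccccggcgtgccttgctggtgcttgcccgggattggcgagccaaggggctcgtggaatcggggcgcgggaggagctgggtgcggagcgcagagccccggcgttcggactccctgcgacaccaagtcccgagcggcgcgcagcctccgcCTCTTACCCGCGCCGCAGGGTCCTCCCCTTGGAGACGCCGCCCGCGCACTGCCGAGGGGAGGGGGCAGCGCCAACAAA
Col4a2: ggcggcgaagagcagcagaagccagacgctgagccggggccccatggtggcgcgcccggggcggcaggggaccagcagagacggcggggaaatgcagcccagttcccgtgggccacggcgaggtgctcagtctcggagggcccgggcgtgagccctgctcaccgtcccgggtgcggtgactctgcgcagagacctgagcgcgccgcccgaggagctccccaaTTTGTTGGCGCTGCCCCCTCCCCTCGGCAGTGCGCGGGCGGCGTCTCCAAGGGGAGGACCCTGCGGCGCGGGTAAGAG
Each window holds CCAAT once on either strand, a motif found in 37.4% of 32851 promoters of this length. The GC box GGGCGG, found in 35.7%, occurred once in the Col4a1 window and 3 times in the Col4a2 window.

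Col4a4 read 11.27, 11.59 and 11.54 in VILI PBEF+/- and 11.80 to 11.87 in VALI, against 12.11, 11.96 and 11.73 in PBEF+/- and 11.80, 12.19, 12.20 and 12.11 in Control. The 3 VILI PBEF+/- arrays lay below all others, while VALI overlapped Control through Control replicate 1. It fell in the averaged comparison with 14 arrays by 0.35 ± 0.08 (adjusted p = 0.0361, limma) and with 12 by 0.41 ± 0.09 (adjusted p = 0.00368). Its head-to-head partner Col4a3 had a difference of -0.21 ± 0.09 with 12 arrays (adjusted p = 0.0828). The log2 difference between the 2 probe sets ranged from 1.06 to 1.71 over the arrays, with an SD of 0.21. Another Col4a4 probe set passed in the averaged comparison with 12 arrays, at -0.56 ± 0.06 (adjusted p = 8.84e-05, limma), and with 14 (adjusted p = 0.0323). A further one did not pass with 12 arrays, at -0.28 ± 0.13 (adjusted p = 0.125), or with 14 (adjusted p = 0.196).

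Col4a5 read 11.33, 11.32 and 11.19 in VILI PBEF+/- and 11.50, 11.44, 11.26 and 11.63 in VALI, against 11.77, 12.11 and 11.26 in PBEF+/- and 11.96, 11.55, 11.68 and 11.95 in Control. With 12 arrays every ventilated array lay below every unventilated one, and the averaged fall was 0.52 ± 0.10 (adjusted p = 0.00164, limma), against 0.38 ± 0.12 with 14 arrays, which did not pass (adjusted p = 0.0644). A second Col4a5 probe set did pass with 14 arrays, at -0.532 ± 0.085 (adjusted p = 0.0323, limma). Col4a6, its X-linked neighbour, known from smooth muscle basement membranes, read 6.85, 7.15 and 7.14 in VILI PBEF+/- and 6.74, 6.94, 6.60 and 7.24 in VALI, against 7.58, 6.85 and 7.09 in PBEF+/- and 7.56, 7.57, 7.49 and 7.28 in Control. All 4 VALI arrays lay below all 4 Control arrays. VALI was lower than Control by -0.71 ± 0.18 with 12 arrays (adjusted p = 0.0205) and by -0.59 ± 0.18 with 14 (adjusted p = 0.155). Without Control replicate 2 or VALI replicate 1 or 3 the call with 12 arrays was lost (adjusted p up to 0.0725). In VILI PBEF+/- against PBEF+/- the groups overlapped, and the difference was -0.17 ± 0.22 with 12 arrays (adjusted p = 0.592). The averaged fall was 0.44 ± 0.14 with 12 arrays (adjusted p = 0.0283), and leaving out any 1 of 5 single arrays ended that call. Col15a1 and Col18a1, collagens of the basement membrane zone that carry heparan or chondroitin sulphate chains, were not called.

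**Figure D3:**
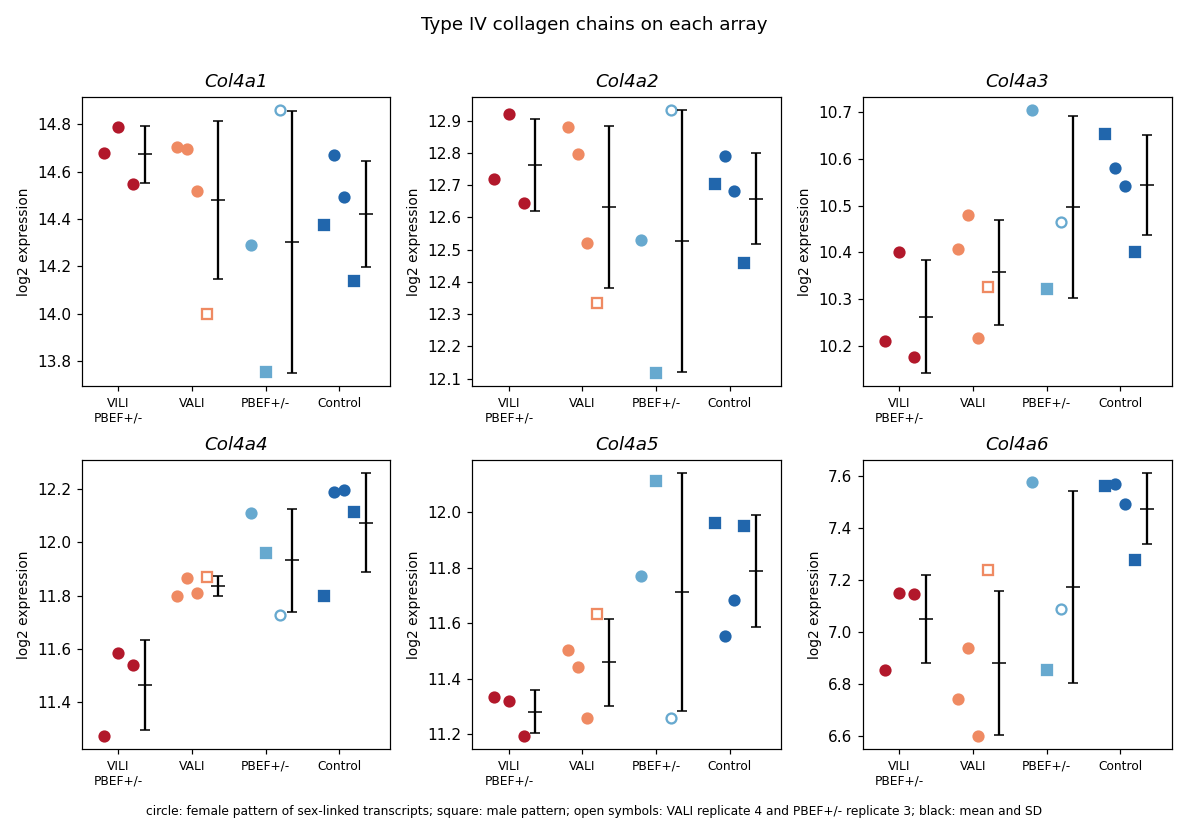
Log2 expression of the 6 type IV collagen chains on each array by group, with the group mean and SD in black. Squares are arrays with the male pattern of sex-linked transcripts and open symbols are VALI replicate 4 and PBEF+/- replicate 3. The VILI PBEF+/- arrays are the 3 lowest for Col4a4, at 11.27 to 11.59, and the vertical scales differ between panels.

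Type VI collagen forms beaded filaments around cells, and 0 of its 3 tested chains were called. Col6a1, which averaged 12.44, had an averaged ventilation difference of 0.09 ± 0.15 with 14 arrays (adjusted p = 0.715, limma). Col6a4 and Col6a5 lay below the array median on every array.

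Among the fibril-associated collagens, which decorate the surface of fibrils, 4 of 9 were tested and Col20a1 was the only one called. Its probe set lay close to the array median and above it on 12 of 14 arrays. It read 5.59, 6.03 and 5.53 in VILI PBEF+/- and 5.05, 5.06, 5.04 and 4.95 in VALI, against 4.82, 5.0 and 5.33 in PBEF+/- and 4.27, 4.70, 5.05 and 4.45 in Control. The VILI PBEF+/- arrays were above all others and the remaining groups overlapped. It rose by 0.54 ± 0.15 in the averaged comparison with 14 arrays (adjusted p = 0.0466, limma) and by 0.62 ± 0.16 with 12 (adjusted p = 0.011), which sex pattern as a covariate ended (adjusted p = 0.0829). In VILI PBEF+/- against VALI its difference was 0.69 ± 0.21 with 14 arrays, the smallest p of the members there, and did not pass (adjusted p = 0.407). Col12a1, which averaged 9.40, was not called, and Col9a1, Col9a2, Col9a3, Col19a1 and Col22a1 lay below the median on every array.

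Of the remaining collagens, Col8a1 showed the furthest fall of any member. Col8a1 encodes a short-chain network collagen of vessel walls. On its brighter probe set it read 7.19, 6.60 and 6.98 in VILI PBEF+/- and 7.27, 7.37, 6.96 and 8.81 in VALI, against 8.38, 8.93 and 7.27 in PBEF+/- and 8.71, 7.89, 7.74 and 8.55 in Control. With 12 arrays no ventilated array reached an unventilated one, and the 2 arrays left out sat with the opposite condition. The averaged fall was 1.38 ± 0.20 with 12 arrays, or 2.60-fold (adjusted p = 0.000409, limma), and 0.95 ± 0.32 with 14 (adjusted p = 0.0733). VALI was lower than Control by -1.03 ± 0.26 (adjusted p = 0.0196) and VILI PBEF+/- lower than PBEF+/- by -1.73 ± 0.31 (adjusted p = 0.00276), both with 12 arrays. The call against Control was lost without Control replicate 4, without VALI replicate 1 or 3 and with only the arrays of female pattern (adjusted p up to 0.0708). The second tested probe set for Col8a1 disagreed in size: it gave -0.82 ± 0.45 (adjusted p = 0.247) in VALI against Control and -0.04 ± 0.53 (adjusted p = 0.963) in VILI PBEF+/- against PBEF+/-. Averaged over both backgrounds with 12 arrays it gave -0.43 ± 0.35 and did not pass (adjusted p = 0.362, limma).

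The RefSeq promoter of Col8a1 (GRCm38.p6, chr16:57754688-57754987, minus strand) is given as that of the member with this fall. Capitals mark GGGCGG on either strand, with 4 matches, and TATAAA had none.
Col8a1: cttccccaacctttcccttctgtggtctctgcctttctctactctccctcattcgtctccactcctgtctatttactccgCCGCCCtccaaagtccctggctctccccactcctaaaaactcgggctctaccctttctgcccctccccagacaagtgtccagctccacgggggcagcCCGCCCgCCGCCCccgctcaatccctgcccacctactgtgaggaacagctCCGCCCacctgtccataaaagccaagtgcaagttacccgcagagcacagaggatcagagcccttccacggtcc

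Col13a1 and Col23a1, both transmembrane collagens, fell in the averaged comparison with 12 arrays, by 0.30 ± 0.10 (adjusted p = 0.0322, limma) and 0.52 ± 0.14 (adjusted p = 0.0133). With 14 arrays their differences were -0.27 and -0.36, and neither was called. Col13a1 lost the call with 12 arrays in 7 of 14 alternatives, and Col23a1 with sex pattern as a covariate (adjusted p = 0.0888). Col23a1 read 8.55, 8.82 and 9.09 in VILI PBEF+/- and 8.85, 9.30, 9.20 and 9.64 in VALI, against 9.61, 9.36 and 8.91 in PBEF+/- and 9.65, 9.40, 9.15 and 9.79 in Control, and the ventilated and unventilated arrays overlapped. Its 2 other probe sets were lower too in the averaged comparison with 12 arrays, by -0.61 ± 0.12 (adjusted p = 0.00236) and -1.40 ± 0.22 (adjusted p = 0.000887).

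Col17a1, a transmembrane collagen of epithelial hemidesmosomes, was raised on a pair of arrays of 1 group. It read 6.90 in VALI replicate 1 and 7.17 in VALI replicate 4, against 4.29 and 4.19 in the other VALI arrays, 3.94 to 4.03 in VILI PBEF+/-, 4.27 to 4.91 in PBEF+/- and 4.31 to 4.57 in Control. The same 2 arrays stood out in the skeletal muscle markers Acta1, Myh4 and Ckm, whose mean was 11.35 and 11.98 there and at most 8.18 on every other array. All 3 markers were measured, and their part in the Col17a1 values was not tested. Col17a1 was not called, with a difference of 1.22 ± 0.58 in VALI against Control (adjusted p = 0.28, limma).

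The laminin chains went both ways, and 9 of 10 were tested. With 12 arrays, Lama5 rose and Lama2 and Lama3 fell in the averaged comparison, and the beta and gamma chains were not called. Only Lama1, the chain best known from embryonic basement membranes, lay below the median on every array.

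Lama5 encodes the main alpha chain of adult epithelial and vascular basement membranes. It read 9.93, 9.72 and 9.62 in VILI PBEF+/- and 9.79, 9.81, 9.84 and 9.28 in VALI, against 9.09, 7.89 and 10.11 in PBEF+/- and 9.43, 9.42, 9.21 and 8.97 in Control. With 12 arrays the ventilated arrays all lay above the unventilated ones, and PBEF+/- replicate 3 had the highest value of all 14. The averaged rise was 0.91 ± 0.18 with 12 arrays (adjusted p = 0.00248, limma), and the difference was 0.57 ± 0.26 with 14 (adjusted p = 0.149). VILI PBEF+/- was above PBEF+/- by 1.26 ± 0.27 with 12 arrays (adjusted p = 0.00733). That value leaned on PBEF+/- replicate 2. Without that array, which leaves 1 PBEF+/- array, the difference was 0.66. In VALI against Control the difference was 0.55 ± 0.23 with 12 arrays and did not pass (adjusted p = 0.121), although the groups did not overlap. A second Lama5 probe set gave an averaged difference of 0.77 ± 0.28 with 12 arrays, which did not pass (adjusted p = 0.0542, limma). That probe set passed in VILI PBEF+/- against PBEF+/- with 12 arrays, at 1.40 ± 0.43 (adjusted p = 0.04).

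The RefSeq promoter of Lama5 (GRCm38.p6, chr2:180225810-180226109, minus strand) is given as that of the laminin chain with this rise. Capitals mark GGGCGG on either strand, with 4 matches.
Lama5: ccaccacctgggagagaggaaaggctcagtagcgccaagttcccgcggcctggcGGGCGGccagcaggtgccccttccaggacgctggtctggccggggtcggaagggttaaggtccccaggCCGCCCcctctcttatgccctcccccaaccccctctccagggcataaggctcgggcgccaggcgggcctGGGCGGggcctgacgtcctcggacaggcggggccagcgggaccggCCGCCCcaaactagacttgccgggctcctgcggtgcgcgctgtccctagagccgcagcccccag

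Lama3, the alpha chain of epithelial anchoring laminin, read 10.14, 10.29 and 9.87 in VILI PBEF+/- and 10.01, 10.29, 9.98 and 10.44 in VALI, against 10.59, 10.07 and 10.47 in PBEF+/- and 10.58, 10.84, 10.91 and 10.80 in Control. All 4 VALI arrays were below all 4 Control arrays. The averaged fall was 0.44 ± 0.11 with 14 arrays (adjusted p = 0.0395, limma) and 0.46 ± 0.12 with 12 (adjusted p = 0.00984). VALI was lower than Control by -0.69 ± 0.15 with 12 arrays (adjusted p = 0.011), the only call of that comparison that was kept in all 14 alternatives tried. Lamb3, a chain of the same trimer, read 9.49 to 9.75 in VILI PBEF+/- and 9.42 to 9.82 in VALI, against 9.15 to 10.02 in PBEF+/- and 9.99 to 10.06 in Control, and was not called. Lama2, the alpha chain of muscle and peripheral nerve basement membranes, fell by 0.32 ± 0.08 in the averaged comparison with 12 arrays (adjusted p = 0.0114), a call that sex pattern as a covariate ended (adjusted p = 0.0537). With 14 arrays the difference was -0.255, and Lama2 was not called.

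Lamb2 had the smallest p of all members in PBEF+/- against Control with 14 arrays, at -0.44 ± 0.15 (adjusted p = 0.593, limma), and in the interaction, at 0.53 ± 0.22 (adjusted p = 0.878). It read 10.12, 9.6 and 10.16 in PBEF+/- against 10.32, 10.50, 10.45 and 10.31 in Control, with no overlap. Lama4, the alpha chain of endothelial and mesenchymal membranes, was among the 3 smallest p-values in VILI PBEF+/- against VALI, at -0.31 ± 0.11 (adjusted p = 0.433). Lamc1, which pairs with most alpha chains and averaged 10.78, read 9.46 in PBEF+/- replicate 2 and 10.62 to 11.18 elsewhere, and its averaged difference was 0.30 ± 0.20 with 14 arrays (adjusted p = 0.317). Lamc3 lay near the array median and was not called.

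The elastic fibre genes gave 1 call among 4 tested. Fbln5, a fibulin that tethers elastin to microfibrils and cells, read 11.61, 11.77 and 11.53 in VILI PBEF+/- and 11.70, 11.71, 11.64 and 12.06 in VALI, against 12.13, 11.98 and 11.92 in PBEF+/- and 12.23, 11.97, 11.94 and 12.37 in Control. Every ventilated array except VALI replicate 4 lay below every unventilated one. The averaged fall was 0.36 ± 0.09 with 14 arrays (adjusted p = 0.0379, limma) and 0.43 ± 0.09 with 12 (adjusted p = 0.00269). VALI against Control gave -0.45 ± 0.11 (adjusted p = 0.0191) and VILI PBEF+/- against PBEF+/- gave -0.42 ± 0.13 (adjusted p = 0.0384), both with 12 arrays. The averaged call was kept in all 14 alternatives, but the call against Control was lost in 5 of 14 (adjusted p up to 0.0651) and the call against PBEF+/- in 8 of 14 (adjusted p up to 0.135), the sex covariate among them in both.

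Eln, which encodes elastin, had one of the widest spreads within groups. It read 10.89, 11.37 and 10.08 in VILI PBEF+/- and 11.95, 11.34, 10.07 and 9.73 in VALI, against 9.76, 9.06 and 11.54 in PBEF+/- and 9.59, 11.61, 11.78 and 9.44 in Control. Control itself split, with replicates 2 and 3 about 2 log2 units above replicates 1 and 4. The averaged difference was 0.41 ± 0.53 with 14 arrays (adjusted p = 0.602, limma) and 0.94 ± 0.49 with 12 (adjusted p = 0.149), and Eln was not called. Fbln1 and Fbln2, fibulins of microfibrils and vessel walls, were not called, and Fbn2, a fibrillin used mainly in development, lay below the median on every array.

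The cross-linking enzymes were both called with 12 arrays. Lox, lysyl oxidase, read 12.56, 12.63 and 11.75 in VILI PBEF+/- and 12.30, 12.27, 11.77 and 9.79 in VALI, against 9.82, 9.83 and 12.13 in PBEF+/- and 10.12, 11.65, 11.70 and 10.67 in Control. With 12 arrays the lowest ventilated value, 11.75, stood just above the highest unventilated one, 11.70, both rounded, and Control replicates 2 and 3 were again the high Control arrays. The averaged rise was 1.78 ± 0.28 with 12 arrays, or 3.44-fold (adjusted p = 0.000657, limma), and the difference was 1.11 ± 0.48 with 14 (adjusted p = 0.133). VILI PBEF+/- was above PBEF+/- by 2.49 ± 0.43, or 5.61-fold (adjusted p = 0.00242), while VALI against Control gave 1.08 ± 0.36 and did not pass (adjusted p = 0.0612), both with 12 arrays. The difference between both responses was not called. A second Lox probe set gave an averaged difference of 1.52 ± 0.26 with 12 arrays (adjusted p = 0.00135).

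Loxl1, a lysyl oxidase that binds elastin and fibulin-5, rose by 0.45 ± 0.16 in the averaged comparison with 12 arrays (adjusted p = 0.043, limma). With 14 arrays the difference was 0.20, and Loxl1 was not called. It read 12.22, 12.46 and 11.76 in VILI PBEF+/- and 12.33, 12.17, 11.76 and 11.48 in VALI, against 11.62, 11.05 and 12.42 in PBEF+/- and 11.68, 12.10, 12.22 and 11.97 in Control, and ventilated and unventilated arrays overlapped. The call was lost in 10 of 14 alternatives, while a second probe set gave 1.15 ± 0.26 (adjusted p = 0.00655).

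Tnc, which encodes tenascin-C, a matricellular protein of injured tissue, had the widest range of any tested member, 4.18 log2 units. It read 8.14, 9.16 and 7.37 in VILI PBEF+/- and 7.55, 7.55, 6.68 and 5.94 in VALI, against 6.36, 4.98 and 8.15 in PBEF+/- and 5.85, 6.09, 6.30 and 6.08 in Control. With 12 arrays every ventilated array lay above every unventilated one, and VALI replicate 4 and PBEF+/- replicate 3 again sat with the opposite condition. The averaged rise was 1.87 ± 0.33 with 12 arrays, or 3.65-fold (adjusted p = 0.0012, limma), and the difference was 1.29 ± 0.45 with 14 (adjusted p = 0.0783). VILI PBEF+/- was above PBEF+/- by 2.55 ± 0.50, or 5.87-fold (adjusted p = 0.00439), and VALI against Control gave 1.18 ± 0.42 and did not pass (adjusted p = 0.0741). With only the arrays of female pattern, which leave 1 PBEF+/- array, the VILI PBEF+/- call was lost. On a second probe set VILI PBEF+/- was 4.52 ± 0.55 above PBEF+/- (adjusted p = 0.000397), with 12 arrays throughout.

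The RefSeq promoter of Tnc (GRCm38.p6, chr4:64046966-64047265, minus strand) is shown as that of the member with the widest range. Capitals mark TATAAA, found in 13.6% of 32851 promoters on either strand, and GGGCGG, each matched once.
Tnc: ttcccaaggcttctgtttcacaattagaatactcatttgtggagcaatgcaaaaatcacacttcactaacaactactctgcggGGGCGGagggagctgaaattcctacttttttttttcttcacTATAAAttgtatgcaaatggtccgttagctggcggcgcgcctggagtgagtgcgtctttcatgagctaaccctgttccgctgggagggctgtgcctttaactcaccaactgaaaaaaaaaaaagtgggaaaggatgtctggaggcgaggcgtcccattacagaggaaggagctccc
TGANTCA, the AP-1 motif, is in 7.8% of promoters and had 0 matches in the windows of Tnc, Lama5, Col8a1, Col4a1 and Col4a2.

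Postn, periostin, a matricellular protein that binds collagen, fell where Tnc rose. It read 13.07, 13.17 and 13.07 in VILI PBEF+/- and 13.17, 13.20, 12.83 and 13.33 in VALI, against 13.44, 13.50 and 13.34 in PBEF+/- and 13.73, 13.30, 13.27 and 13.62 in Control. The averaged fall was 0.33 ± 0.09 with 14 arrays (adjusted p = 0.0447, limma) and 0.39 ± 0.10 with 12 (adjusted p = 0.00854), where ventilated and unventilated arrays did not overlap. Sex pattern as a covariate ended the call with 12 arrays (adjusted p = 0.0715). Fn1, fibronectin, kept the narrowest range of the tested members, 0.346 log2 units, and its averaged difference was 0.03 ± 0.06 with 14 arrays (adjusted p = 0.724).

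**Figure D4:**
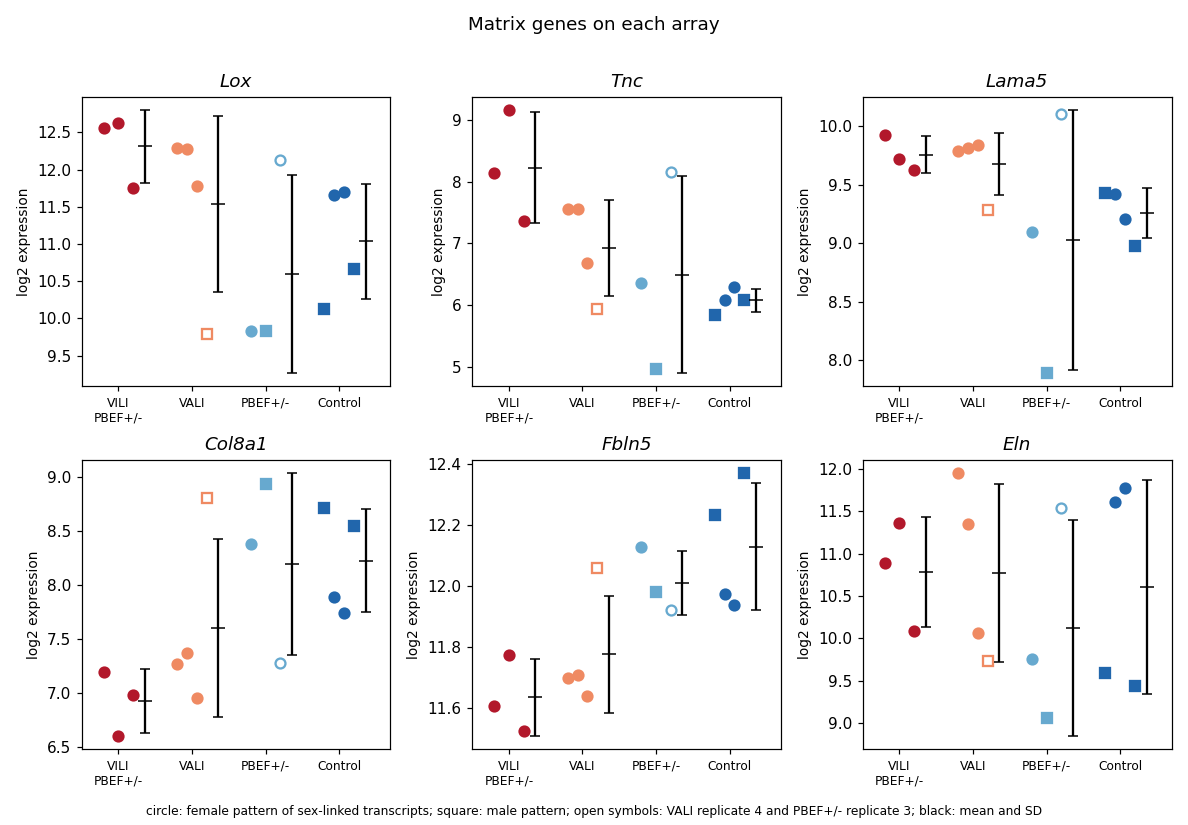
Log2 expression of Lox, Tnc, Lama5, Col8a1, Fbln5 and Eln on each array by group, with the group mean and SD in black. Squares are arrays with the male pattern of sex-linked transcripts and open symbols are VALI replicate 4 and PBEF+/- replicate 3. For Lox those open symbols sit at 9.79 and 12.13, each with the arrays of the opposite condition, and Control splits for Eln.

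In whole lung, fewer cells of a type and less RNA per cell cannot be told apart. Marker lists of other cell types also differed between groups. The mean of 5 of 5 neutrophil markers was 11.60 to 11.74 in VILI PBEF+/- and 7.17 to 11.79 in VALI, against 7.17 to 11.46 in PBEF+/- and 7.02 to 8.02 in Control, with the same 2 arrays against their groups. The mean of 6 of 6 fibroblast markers was 11.37 to 11.63 in VILI PBEF+/- and 11.42 to 11.77 in VALI, against 11.38 to 11.85 in PBEF+/- and 11.73 to 11.82 in Control, and all VILI PBEF+/- arrays lay below all Control arrays. That list split: Meox2 read 7.79 to 9.28 in VILI PBEF+/- and 9.62 to 10.05 in Control, and Tcf21 and Inmt also lay below Control without overlap. Pdgfra read 13.49 to 13.59 in VILI PBEF+/- and 13.24 to 13.49 in Control, while Cd34 and Pi16 overlapped between those groups. The mean of 6 of 6 endothelial markers was 12.39 to 12.50 in VILI PBEF+/- and 12.30 to 12.56 in VALI, against 12.45 to 12.62 in PBEF+/- and 12.66 to 12.79 in Control, which was above every other group. Its members split as well: Tek read 12.33 to 12.63 in VILI PBEF+/- and 13.26 to 13.60 in Control, and Kdr read 10.11 to 10.76 in VILI PBEF+/- and 10.96 to 11.71 in Control, while Pecam1, Cdh5, Cldn5 and Vwf overlapped between those groups.

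Some epithelial lists differed too. The mean of 4 of 4 club and ciliated cell markers was 12.60 to 12.91 in VILI PBEF+/- and 12.85 to 13.40 in VALI, against 12.82 to 13.50 in PBEF+/- and 13.29 to 13.68 in Control. The mean of 5 of 5 alveolar type I markers was 12.88 to 12.97 in VILI PBEF+/- and 12.80 to 13.31 in VALI, against 12.72 to 13.41 in PBEF+/- and 13.23 to 13.55 in Control. In both lists all VILI PBEF+/- arrays lay below all Control arrays. Of their members, Pdpn of the alveolar type I list and Foxj1 of the club and ciliated list overlapped between those groups. The alveolar type II list overlapped: the mean of 4 measured of 5 markers was 14.01 to 14.13 in VILI PBEF+/- and 14.02 to 14.49 in Control. Of its members, Sftpc read 15.38 to 15.47 in VILI PBEF+/- and 15.61 to 15.70 in Control, without overlap, while Sftpa1, Sftpb and Abca3 overlapped. The part of any of these marker differences in the matrix values was not tested.

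PBEF+/- replicate 2 was low across the members. It held the lowest value of 24 of the 44 tested members, or 54.5%, against 23.8% of all tested genes, and the members' median deviation from their means there was -0.62, against -0.03 for all tested genes. Col1a1 (9.62), Lamc1 (9.46), Lama5 (7.89), Fbln1 (8.54) and Col6a1 (11.58) were all lowest on it. The low values reached beyond the matrix: the array also had the lowest mean of 6 of 6 smooth muscle markers (10.23) and of 5 of 5 alveolar type I markers (12.72). The mean of 3 of 3 skeletal muscle markers (4.63) was lowest too, through Ckm (5.74), while Acta1 and Myh4 were not lowest there. Its upper quartile over all probe sets was the lowest, 8.603 against 8.634 to 8.740 elsewhere. Endothelial markers went both ways: Cdh5 and Pecam1 were lowest on this array and Kdr was highest (12.02). Their list mean there, 12.45, was not the lowest. The fibroblast markers of this array, at 11.69, were not the lowest. The part of these markers was not tested. With 12 arrays the PBEF+/- group is this array and replicate 1, so comparisons with PBEF+/- lean on it. Leaving out either array, or keeping only the arrays of female pattern, leaves 1 PBEF+/- array in the fit with no spread of its own.

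**Figure D5:**
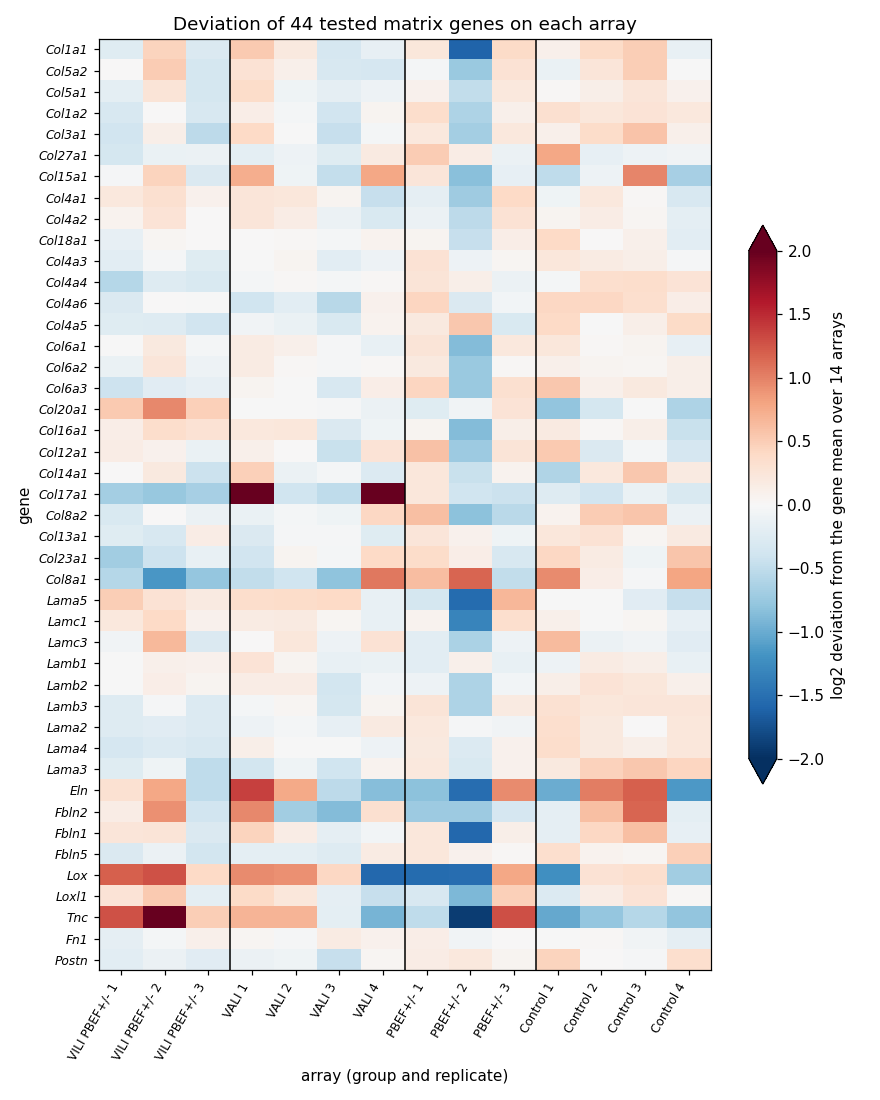
Deviation of each of the 44 tested genes from its mean over 14 arrays, in log2 units, with arrays in columns by group and genes in rows by role. The column of PBEF+/- replicate 2 holds the lowest value of 24 genes, while VALI replicate 4 and PBEF+/- replicate 3 look unlike the rest of their groups for Lox, Tnc and Col8a1.

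Sex pattern also sorted some members. For Tnc, Eln and Col8a1, 3 of 44 tested members against 2.90% of all genes, the 4 arrays with the male pattern and the 10 with the female pattern did not overlap. Eln read 9.06 to 9.73 on arrays with the male pattern and 9.76 to 11.95 on those with the female pattern. Tnc read 4.98 to 6.08 with the male pattern and 6.09 to 9.16 with the female pattern. Col8a1 read 8.55 to 8.93 with the male pattern and 6.60 to 8.38 with the female pattern. Since all arrays with high Il6 have the female pattern, sex and ventilation cannot be told apart in these ranges. With 12 arrays and sex pattern in the model, Lox (1.36, adjusted p = 0.00475), Tnc (1.56, adjusted p = 0.0123), Lama5 (0.67, adjusted p = 0.0219) and Col8a1 (-1.01, adjusted p = 0.00125) were among the 9 of 16 members still called in the averaged comparison. The other 7, Lama2, Col4a1, Postn, Col13a1, Col20a1, Col23a1 and Loxl1, were not called with that covariate, with adjusted p-values of 0.0537 to 0.301.

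Genes that make or bind this matrix were listed by function, and 40 of 46 were tested. With 14 arrays 5 passed in the averaged comparison, 2 higher and 3 lower, against 8.36% of all genes, 4.09% higher and 4.27% lower. With 12 arrays 17 passed, or 42.5% against 39.5% of all genes, with 6 higher and 11 lower (background 14.9% and 24.6%). The genes named here are a selection that covers more of the 6 higher than of the 11 lower. Their calls were not followed under the alternatives. Integrin subunits that bind laminin, fibronectin or latent TGF-beta were among the higher ones with 12 arrays: Itgb4 by 1.22 ± 0.18 (adjusted p = 0.000494, limma), Itgb8 by 1.17 ± 0.18 (adjusted p = 0.000517), Itgav by 0.34 ± 0.07 (adjusted p = 0.00258) and Itga5 by 1.35 ± 0.33 (adjusted p = 0.00805). The collagen receptor subunit Itga1 fell by 1.05 ± 0.21 (adjusted p = 0.00285), as did Agrn, a basement membrane proteoglycan, by 0.52 ± 0.09 (adjusted p = 0.00139). Of the lysyl hydroxylases that prepare collagen for cross-linking, Plod1 rose by 0.81 ± 0.25 (adjusted p = 0.0219) and Plod2 fell by 0.54 ± 0.12 (adjusted p = 0.00541). Pcolce2, which enhances procollagen processing, fell by 0.49 ± 0.07 (adjusted p = 0.000411).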

How the data were processed

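Total RNA of whole mouse lung was measured on 14 Affymetrix arrays, with biotin-labelled cRNA from 6 µg of RNA per the labels' protocols. The values the authors deposited are log2 expression, with 45101 probe sets on each array. MAS5 and GCRMA appear in the submitters' processing notes with no version or role, and the log2 scale was read from the values (0.446 to 16.1, array medians 4.60 to 4.75). No scaling was added. Of the probe sets 34958 carried 1 symbol in the platform annotation, 932 several and 9211 none, and only those with 1 symbol were used.

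A model of 4 groups was fitted with limma 3.58.1 in R 4.3.3 (empirical Bayes with a variance trend) to 11360 genes whose probe set exceeded the array median on at least 3 arrays. P-values were adjusted by Benjamini and Hochberg over all of them, two-sided, and called under 0.05. Each ± after a difference is a standard error, and log2 differences are the first named group minus the second. The number of arrays limits the precision. Figures used matplotlib 3.10.9. Promoters come from RefSeq (GRCm38.p6), with 43 of 62 members matched.

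The members, gene lists, tests and the 12-array set were chosen with earlier results of these data known. Named members include those called in any comparison and those with the 3 smallest p-values where all 14 arrays were used. They also include the highest mean of each role and those below the median on every array. Some others, among them Col1a1, Eln, Fn1 and Lamb3, were named outside these rules. With 14 arrays, alternatives covered the filter, the normalization, the probe set per gene, the variance model and array weights. They also covered sex pattern, a replicate block, the groups in the fit and leaving out each array. With 12 arrays, the 14 alternatives were leaving out each of the 12, sex pattern as a covariate and only the arrays of female pattern. The fit of arrays with the female pattern was added after the data were seen.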

Additional observations from a re-analysis of the deposited data

Results flagged for a closer look

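Of 88 sets of 4 arrays (44 tested members in VALI and in Control), 4 held an array further from the rest than Dixon's critical value allows, and chance alone gives about 1 in 20. Fbln5 read 12.06 in VALI replicate 4, against 11.64 to 11.71 in the other VALI arrays. Lama5 read 9.28 in VALI replicate 4, against 9.79 to 9.84. Col27a1, a fibrillar collagen, read 9.57 in Control replicate 1, against 8.63 to 8.72 in the other Control arrays. Lamc3 read 5.47 in Control replicate 1, against 4.61 to 4.76, near the array median.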

How the results depend on the processing

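Differences of members called, or among the 3 smallest p-values of a comparison with 14 arrays, kept their sign under every alternative tried. Other differences given above, such as that of Col1a1, were not followed in this way. With 14 arrays, the count of called members in VALI against Control was 0 and became 5 with 12 arrays, 12 with array weights and 0 to 3 when single arrays were left out, 3 without VALI replicate 4. In VILI PBEF+/- against PBEF+/- it was 0 and became 11 with 12 arrays, 16 with array weights and 0 to 7 with single arrays left out, 7 without PBEF+/- replicate 3. In VILI PBEF+/- against VALI it became 5 with array weights. In the averaged comparison it was 5 and became 16 with 12 arrays, 22 with array weights, 0 with no filter and 0 with sex pattern as a covariate, and it was 0 to 14 with single arrays left out. It was 12 without VALI replicate 4, 14 without PBEF+/- replicate 3, 3 without VILI PBEF+/- replicate 3, 1 without Control replicate 1 and 0 without any other single array. The cause was not tested.

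With 12 arrays, leaving out another array gave 1 to 9 in VALI against Control: 1 without VALI replicate 1 or 3, 3 without VALI replicate 2 or Control replicate 4, and 9 without PBEF+/- replicate 1 or 2. In VILI PBEF+/- against PBEF+/- it gave 7 to 12 where both PBEF+/- arrays stayed, 7 without VILI PBEF+/- replicate 1 or 2. In PBEF+/- against Control it gave 0 to 16 and in the interaction 0 to 10, the high counts without PBEF+/- replicate 1, when PBEF+/- replicate 2 stands alone and is assumed to vary like the other groups. Sex pattern as a covariate gave 7 in VILI PBEF+/- against PBEF+/- and 10 in the averaged comparison. In the averaged comparison Col4a4, Col4a5, Col8a1, Fbln5, Lama3, Lama5, Lox and Tnc kept their calls in all 14 alternatives. None of these 14 changed the probe set, the filter or the normalization. The 32 calls with 12 arrays, over all comparisons, were set beside other probe sets of the same genes. For 21 of them 25 other probe sets were tested, and all had the same sign. Of these 18 were called and 7, of Col4a4, Col4a6, Col8a1 and Lama5, were not.

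Replicate numbers did not pair the arrays: 7 of 19 same-number pairs had a correlation of deviations over 0.1 (range -0.35 to 0.32). With the replicate number as a block, 5 members were called in the averaged comparison with 14 arrays and 0 in each other one. Members near the array median, such as Col20a1, Col17a1 and Lamc3, are limited by signal over background.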
